A study of Schizosaccharomyces pombe with 2 samples.

Results

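Antisense transcripts that begin inside a protein-coding sequence run towards the 5′ end of the gene that hosts them, and the question here was where they stop: inside the coding sequence, in the 5′ UTR, between the sense start and the next gene, or in that gene. The transcript models were chosen by position. A model was kept when it had a single exon on chromosome I, II or III, shared 1 nt or more with a protein-coding exon of the other strand, overlapped no exon on its own strand, and had its first base in coding sequence of the opposite-strand gene, with annotated lncRNA and ncRNA genes left out of the reference. This gave 4932 of the 95880 models on these chromosomes in *S. pombe*, 246 of 26057 in the untreated WT library and 4686 of 69823 in the pooled library. They lay in 1767 host genes, which are 34.6% of the 5113 protein-coding genes. Of these, 154 had a member in WT (3.01% of all genes), 1758 in the pool (34.4%) and 145 in both.

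Both libraries were made with PacBio Iso-Seq, which reads polyadenylated RNA as full-length cDNA on a known strand. The WT library came from untreated cells of the h+ ade6-M216 ura4-D18 leu1-32 strain. The pool mixed that genotype with the hrp1del::kanMX hrp3del double mutant (hrp1Δhrp3Δ) on the same background, each grown without stress, with 14 mM caffeine or with 200 ng/ml of the antifungal clotrimazole. All cultures grew at 32 °C. Each group is 1 library with no replicate, and the series describes separate sequencing runs with WT alone in one of them, although the labels give both the same batch. Genotype, treatment, run and library size cannot be told apart, so no test was made between the libraries. The files hold no read numbers, so depth is unknown. Sense models over at least 50% of the coding sequence were present at the deleted genes in either library, 5 in WT and 4 in the pool at *hrp1* and 3 in each at *hrp3*, and the pool is labelled as holding intact and deleted alleles. Intervals are 95% Clopper-Pearson intervals. They take in counting error alone and treat models of 1 host as independent, which they are not.

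In a gene transcribed by RNA polymerase II, the 3′ end of the RNA is made by cleavage and polyadenylation, guided by A/U-rich elements of which the AAUAAA hexamer is the best known. Coding sequence is usually poor in such elements, while the stretches between genes are rich in them. Hrp1 and Hrp3 are remodelers of the CHD family that space nucleosomes over gene bodies, and loss of Hrp3 is known to release antisense transcription from cryptic promoters. An antisense transcript that runs well past the sense start of its host reaches into the promoter region of that gene.

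To show what an end looks like in sequence, end positions shared by the most members in each class of end are printed here, from the RefSeq genome ASM294v3. Apart from the end in *sea3*, each was tied with other positions of its class at 2 members, and ties were settled by gene ID. Each line runs 5′ to 3′ on the strand of the antisense model and holds 40 bases up to and including the last base of the model, followed by the 20 genomic bases after it. Capitals mark that last base, an AATAAA hexamer where the first 40 bases hold one, and in the antisense of *SPAC1399.01C* the complement of the host's first codon. Windows with more than 30 bases of annotated UTR are not shown. An A-rich stretch, with at least 6 A in the next 10 bases, follows the ends of *SPAC1399.01C* (8 A), *exg2* (8 A) and *SPAC12G12.16C* (6 A in *pus9*, 8 A beyond it). Such stretches are taken up below.
antisense of sea3: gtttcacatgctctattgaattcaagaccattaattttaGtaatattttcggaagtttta
antisense of dhc1: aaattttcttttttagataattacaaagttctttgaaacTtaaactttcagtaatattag
antisense of SPAC1399.01C: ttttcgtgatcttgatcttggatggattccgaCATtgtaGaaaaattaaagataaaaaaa
antisense of sgt1: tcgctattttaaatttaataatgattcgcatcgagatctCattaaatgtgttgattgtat
antisense of exg2: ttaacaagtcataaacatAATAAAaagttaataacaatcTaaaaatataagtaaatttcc
antisense of SPAC12G12.16C, end in pus9: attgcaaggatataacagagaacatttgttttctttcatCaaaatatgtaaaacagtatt
antisense of SPAC12G12.16C, end beyond pus9: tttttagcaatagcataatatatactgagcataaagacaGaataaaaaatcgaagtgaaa

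The end in *sea3*, which codes for a subunit of the SEA complex, lies at chromosome I, 5289606 to 5289665, minus strand, in coding sequence, and was the end of 3 members, 1 of them from WT. The end in *dhc1*, the gene of the dynein heavy chain, lies at chromosome I, 4627502 to 4627561, plus strand, 7215 nt inside the coding span. The window in the transporter gene *SPAC1399.01C*, chromosome I, 1852602 to 1852661, minus strand, shows a model that ran out of the coding sequence and stopped 5 nt past the first codon. The end upstream of *sgt1*, chromosome I, 1815837 to 1815896, plus strand, lies between the sense start and the divergent neighbour *gaa1*. The end upstream of *exg2*, a glucan glucosidase gene, chromosome I, 4591545 to 4591604, minus strand, is the one among the 7 windows with the hexamer in the 40 bases up to the end. Both windows from *SPAC12G12.16C*, a Fen1-like nuclease gene, belong to models that had entered the tandem neighbour. The first, chromosome I, 314429 to 314488, minus strand, lies in the pseudouridine synthase gene *pus9*. The second, chromosome I, 312974 to 313033, minus strand, lies beyond *pus9* in *SPAC18B11.03C*. The last 6 of these positions were each the end of 2 members, 1 from each library. Models of 1 library with like ends had mostly been joined, so for these 6 being shared means being found once in each library.

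Antisense models from coding sequence most often left the coding span of the host. Past the first codon ended 161 of 246 members in WT (65.4%, interval 59.1 to 71.4) and 2726 of 4686 in the pool (58.2%, 56.7 to 59.6). Past the sense start, which is the annotated first base of the host mRNA, ended 114 in WT (46.3%, 39.98 to 52.8) and 1964 in the pool (41.9%, 40.5 to 43.3). The intervals of the libraries overlapped at either landmark, by a small margin at the first codon, and the difference was not tested. Inside the upstream gene or beyond it ended 23 members in WT (9.35%, 6.02 to 13.7) and 505 in the pool (10.8%, 9.90 to 11.7).

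The remaining members divide as follows. In the coding span ended 85 members in WT (34.6%) and 1960 in the pool (41.8%), of which 9 and 256 ended in an intron of the host. In the 5′ UTR span ended 47 (19.1%) and 762 (16.3%). Between the sense start and the upstream gene ended 91 (37.0%) and 1459 (31.1%). The annotation gives no 5′ UTR for 165 hosts with 520 members, and there the first codon also serves as the sense start. In hosts with a 5′ UTR, 61 of 181 members in WT (33.7%) and 1660 of 4231 in the pool (39.2%) ended past the sense start. Both shares lie below the intervals given above for all hosts, and the WT share is then the lower.

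The median member was 1574 nt long in WT and 1364 nt in the pool. It began 1541 nt inside the coding span in WT, counted from the first codon, and 1435.5 nt inside in the pool. It ended 120 nt past the first codon in WT and 72 nt past it in the pool, which is 68 nt and 103 nt short of the sense start.

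**Figure D1:**
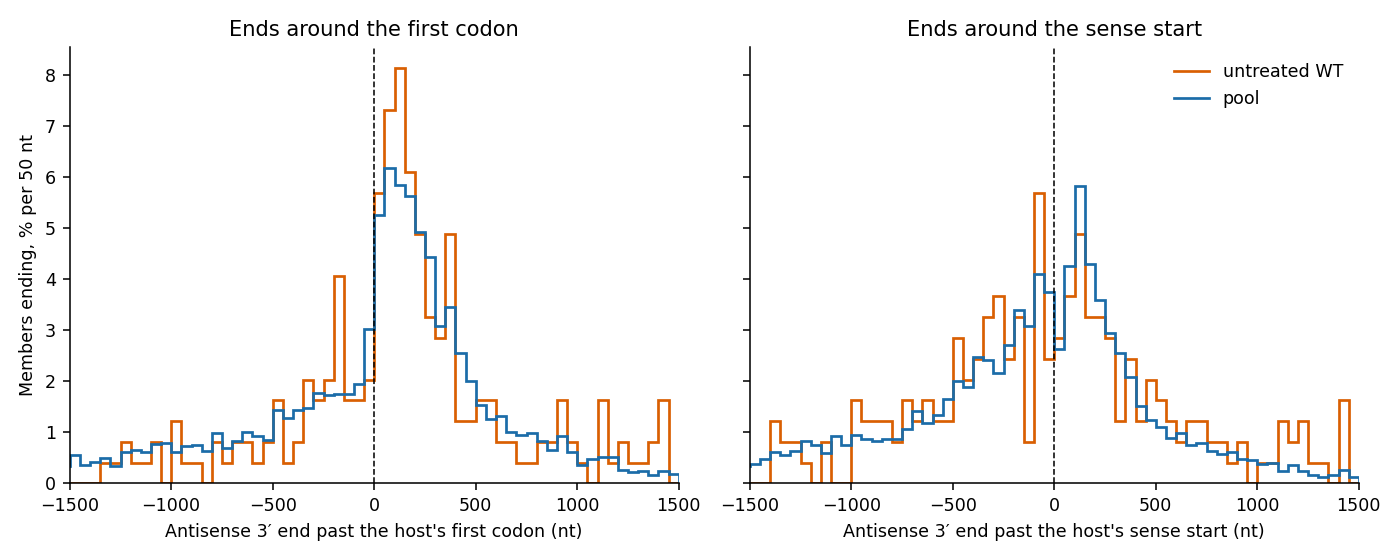
Share of members (y axis, % per 50 nt) whose 3′ end lies at a given distance (x axis, nt) past the host's first codon, left, or sense start, right, in untreated WT (orange, 246 members) and the pool (blue, 4686 members); negative distances are inside the gene. In the pool the share rises from 1.94% at 50 to 99 nt inside the first codon to 6.17% at 51 to 100 nt past it, and around the sense start it dips to 2.62% in the first 50 nt past it and peaks at 5.83% at 101 to 150 nt past it.

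Ends did not gather on the first codon or the sense start themselves. Within 50 nt of the first codon lay 19 ends in WT (7.72%) and 389 in the pool (8.30%). Within 50 nt of the sense start lay 13 (5.28%) and 301 (6.42%). The profile instead changed level at the first codon. In the pool, 91 members (1.94%) ended 50 to 99 nt inside the coding span, 142 (3.03%) in its last 50 nt, 246 (5.25%) in the first 50 nt past the first codon and 289 (6.17%) in the next 50 nt. In WT the same 4 windows held 4, 5, 14 and 18 ends. Around the sense start the pool had 176 ends in the last 50 nt of the gene, 123 in the first 50 nt past it, 199 in the next and 273 at 101 to 150 nt past it. In WT the windows of 50 nt from 50 to 99 nt inside the sense start to 151 to 200 nt past it held 14, 6, 7, 9, 12 and 8 ends.

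A profile of ends also reflects how many models reach each position, so the share of models still running that ended in each 50 nt was computed. Models that began at least 500 nt inside the coding span were used. Each collapsed model counts once whatever its number of reads, so the rate describes listed models and not how often transcripts ended. In the last 500 nt of the coding span this ending rate was 2.85% per 50 nt in WT and 3.41% in the pool. In the first 200 nt past the first codon it was 15.2% in WT and 13.4% in the pool, 5.33 and 3.93 times as high. From 200 to 500 nt past the first codon it was 12.7% and 15.5%. In the pool the rate was 3.70% at 50 to 99 nt inside (interval 2.99 to 4.53), 5.87% in the last 50 nt of the coding span (4.97 to 6.88) and 10.6% in the first 50 nt past the first codon (9.34 to 11.9). It reached 17.0% at 251 to 300 nt past the first codon (14.9 to 19.2) and 17.2% at 351 to 400 nt (14.8 to 19.7). With such wide overlap, no single highest position can be told.

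**Figure D2:**
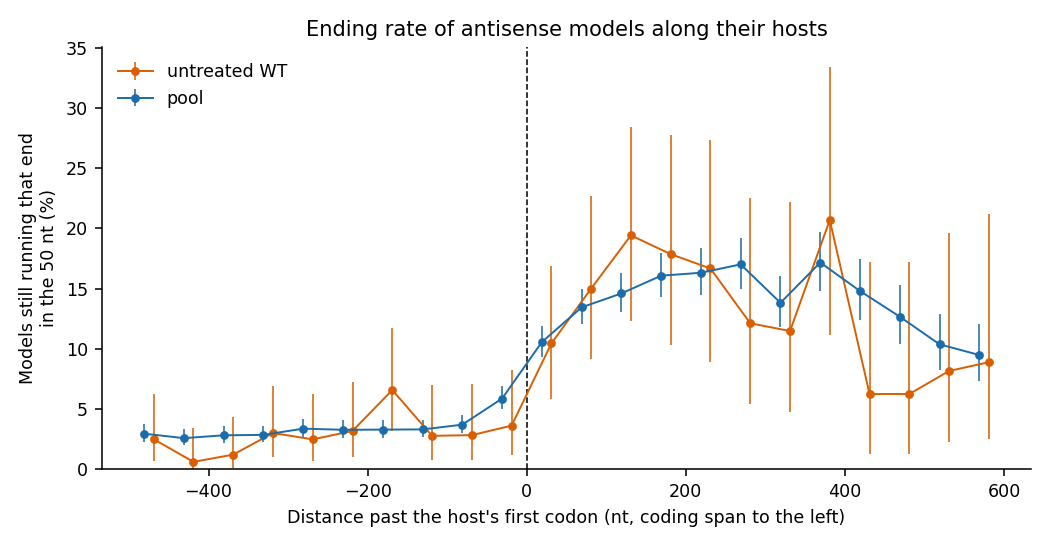
Share of models still running (y axis, %) that end in each 50 nt along the host (x axis, nt past the first codon, coding span to the left), for models that began at least 500 nt inside the coding span, in untreated WT (orange) and the pool (blue); bars are exact 95% intervals and points of the libraries are set apart by a few nt. The rate in the pool is 3.70% at 50 to 99 nt inside the coding span and 10.6% in the first 50 nt past the first codon.

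The step was present in every subset of models examined in the pool. The rates in the last 500 nt of the coding span and the first 200 nt past the first codon were 3.13% and 11.8% for hosts with a tandem upstream gene, and 3.70% and 15.4% for hosts with a divergent one. They were 2.98% and 15.6% for hosts whose 5′ UTR spans at least 100 nt, and 3.34% and 12.7% for models outside annotated ncRNA genes. When models that overlap an exon on their own strand were also allowed, they were 3.31% and 12.4%. From 200 to 500 nt past the first codon the rate with such models was 12.2% in place of 15.5% in the pool and 7.41% in place of 12.7% in WT.

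Models that had run farther ended more often everywhere, and the step remained at a given distance run. This split was chosen after the rates were seen. In the pool, after 500 to 1000 nt, 0.925% of steps of 50 nt in the coding span held an end against 6.22% in the first 500 nt past the first codon. After 1000 to 1500 nt the values were 4.23% and 17.7%, and after 1500 to 2000 nt 6.14% and 21.0%. In WT they were 0.330% and 2.92%, 2.36% and 15.3%, and 6.16% and 20.1%.

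Base composition changed at the same place. Over the 1767 hosts, read on the antisense strand, GC content was 38.7% in the last 500 nt of the coding span, 32.2% in the first 200 nt past the first codon and 31.6% from 200 to 500 nt past it. Positions followed by an A-rich stretch, defined as at least 6 A in the next 10 bases, made up 6.29%, 14.9% and 13.2%, and positions with AATAAA in the 40 bases up to them 3.35%, 7.92% and 8.42%. The part of composition in the change of ending rate was not tested.

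The last bases of the members were compared with other positions. AATAAA, searched on the model's strand as those letters, lay in the last 40 nt of 28 members in WT (11.4%, 7.70 to 16.0) and 773 in the pool (16.5%, 15.4 to 17.6). At positions 200 nt before the end of the same models, 2.03% and 3.54% had it. Among sense models of the host genes that ended in the 3′ UTR it was 13.7% and 13.0%, and among 4728 annotated mRNA ends 14.8%. Members that ended in the coding span in the pool had it in 15.1% (13.5 to 16.7), against 3.47% of all positions of the coding spans. In WT 6 of 85 such members had it (7.06%, 2.63 to 14.7), an interval that includes the latter value. The other classes in the pool ranged from 16.6% in the upstream gene to 18.2% in the 5′ UTR span. The last 40 nt held 29.8% GC in WT and 30.04% in the pool, against 37.0% and 36.8% at 200 nt before the end.

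An A-rich stretch in the genome after an end is also a place where an oligo-dT primer could bind RNA that has no tail there. Such a stretch followed 74 ends in WT (30.1%, 24.4 to 36.2) and 1494 in the pool (31.9%, 30.5 to 33.2). It followed 26.0% and 26.9% of the sense ends and 12.2% of the annotated mRNA ends. By class it was least frequent in the coding span, at 18.8% in WT and 25.3% in the pool, and most frequent in the pool in the 5′ UTR span, at 48.3%. Without these ends the rates in the pool were 3.86% in the last 500 nt of the coding span and 11.9% in the first 200 nt past the first codon, a ratio of 3.09 in place of 3.93. In WT the ratio was 4.32 in place of 5.33. Whether single ends come from such priming was not tested.

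How far a member got varied with where it began. In the pool, all 204 members that began within 250 nt of the first codon, and all 193 that began at 250 to 500 nt, ended past it, and since the shortest member of that library was 367 nt long, the first of these groups had to. Of 888 that began 500 to 1000 nt inside, 94.4% passed the first codon and 75.1% the sense start. Of 2118 that began 1000 to 2000 nt inside, 62.2% and 37.4% did. Of 1283 that began more than 2000 nt inside, 13.5% and 8.89% did. Median length moved less, from 1168.5 nt for the nearest starts to 1570 nt for the farthest. In WT the share past the first codon was 100% of 18, 9 and 18 members in the 3 nearest groups, 73.2% of 142 and 20.3% of 59 in the others. The shortest WT member was 646 nt long, so the members of the 2 nearest groups had to pass the first codon.

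**Figure D3:**
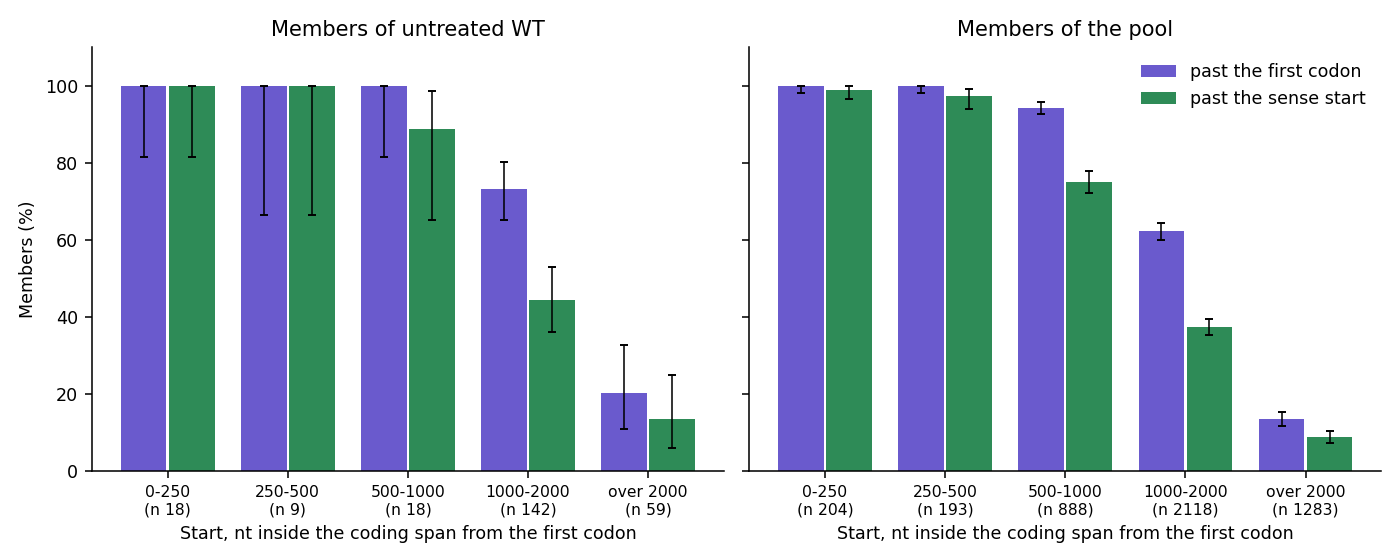
Share of members (y axis, %) that end past the host's first codon (purple) or sense start (green), by where they begin inside the coding span (x axis, nt from the first codon, with the number of members), in untreated WT, left, and the pool, right; bars are exact 95% intervals. In the pool the share past the first codon falls from 100% for starts within 500 nt to 13.5% for starts more than 2000 nt inside.

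Members were then divided by how the upstream gene lies. A tandem upstream gene is transcribed in the direction of the host, so that the antisense model meets its 3′ end from outside, while a divergent one is transcribed on the strand of the model itself. By the rule, a member cannot overlap an exon of a divergent neighbour, so its share there is 0 by construction. Of members in tandem hosts, 55 of 101 in WT (54.5%) and 1147 of 2372 in the pool (48.4%) ended past the sense start, and 23 (22.8%) and 505 (21.3%) in or beyond the upstream gene. In divergent hosts 59 of 145 (40.7%) and 817 of 2314 (35.3%) ended past the sense start, a share that the rule also lowers, since models that ran on into the neighbour are left out. With own-strand exons allowed, a split added after the data were seen, 153 of 246 (62.2%, 55.8 to 68.3) did so in divergent and 68 of 116 (58.6%, 49.1 to 67.7) in tandem hosts of WT, and 1361 of 2975 (45.7%, 43.9 to 47.6) and 1263 of 2585 (48.9%, 46.9 to 50.8) in the pool. The members of divergent hosts that ended past the sense start stopped a median of 647 nt short of the neighbour in the pool and 674 nt short in WT. The median share of the gap crossed was 29.8% in the pool and 37.3% in WT. The rule also bears on these distances, since models that reached an exon of the neighbour are left out.

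The nearer a tandem gene lay, the more members entered it. In the pool, 321 of 832 members (38.6%, 35.3 to 42.0) did so at gaps under 200 nt, 154 of 879 (17.5%) at 200 to 500 nt, 27 of 407 (6.63%) at 500 to 1000 nt and 3 of 254 (1.18%) at 1000 nt or more. Among members already past the sense start the shares were 79.7%, 40.1%, 11.4% and 2.42%. In WT the counts were 14 of 25, 7 of 45, 0 of 13, whose interval reaches 24.7%, and 2 of 18. The closest group includes hosts that overlap the upstream gene, with 131 members in the pool of which 80 ended in or beyond it. In such hosts every end past the sense start counts as in the upstream gene by construction, which raises the shares of that group. The gaps of host genes were like those of all genes, with medians of 306.5 and 311 nt for tandem and 782 and 731 nt for divergent neighbours.

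In tandem pairs the counts of ends were highest around the 3′ end of the upstream gene. Of the members past the sense start, 10 of 55 in WT (18.2%, 9.08 to 30.9) and 194 of 1147 in the pool (16.9%, 14.8 to 19.2) ended within 50 nt of it. In the pool 97 of the ends lay in the 50 nt up to the last base of that gene, as the model meets it, and 95 in the next 50 nt inside it, the highest values of the profile. These are counts of ends, and an ending rate among models still running was not computed around this landmark. Of the 505 members in or beyond the upstream gene, 274 (54.3%) ended in its 3′ UTR, 122 (24.2%) in a coding exon, 29 in an intron, 20 in its 5′ UTR and 59 (11.7%) beyond it. In WT 11 of 23 ended in the 3′ UTR, 5 in a coding exon, 3 in an intron and 4 beyond the gene. Past the first codon of the upstream gene, and so across a second coding sequence, ran 80 members of the pool and 4 of WT.

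**Figure D4:**
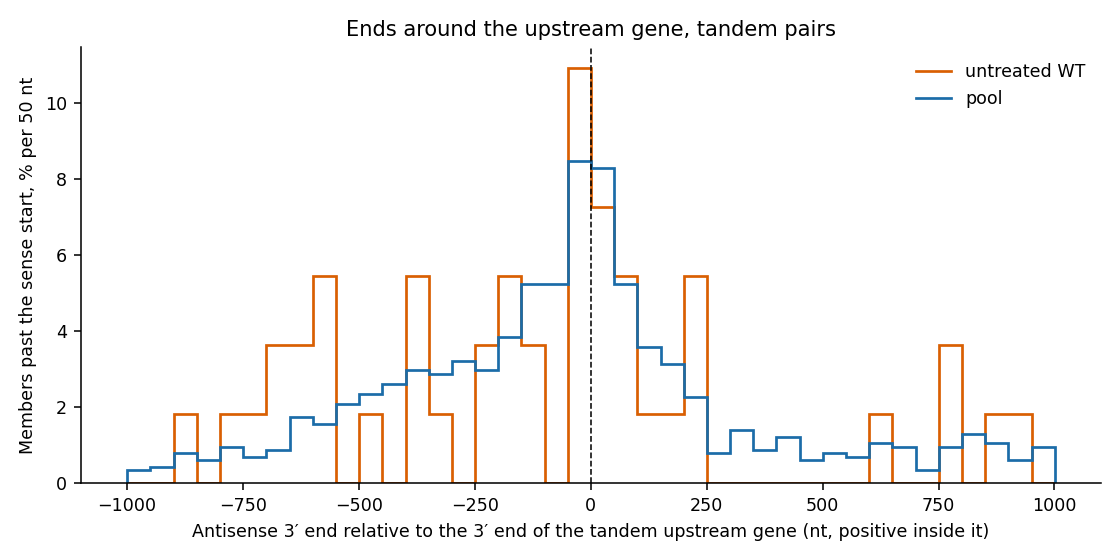
Position of antisense 3′ ends (x axis, nt, positive inside the gene) relative to the 3′ end of the tandem upstream gene, as the share of members past the sense start (y axis, % per 50 nt), in untreated WT (orange, 55 members) and the pool (blue, 1147 members). The pool is highest on either side of 0, with 97 ends in the 50 nt up to the last base of the gene and 95 in the next 50 nt inside it.

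Models barred by the rule for an exon on their own strand show the divergent side. They were 116 of 362 candidates in WT (32.0%, 27.3 to 37.1) and 874 of 5560 in the pool (15.7%, 14.8 to 16.7). Of these, 90 in WT and 494 in the pool ran into the divergent neighbour, as antisense of one gene and sense of the next. Within 50 nt of the annotated 3′ end of that neighbour ended 33 of the 90 (36.7%, 26.8 to 47.5) and 105 of the 494 (21.3%, 17.7 to 25.1). The commonest pairs in the pool were *coq10* reached from *gpi10* with 13 models, *wis4* reached from *SPAC9G1.14* with 10 and *gpi10* reached from *coq10* with 9. The last of these pairs had 8 models in WT. With these models counted, the share that reached the upstream gene rose from 9.35% to 32.0% in WT and from 10.8% to 19.3% in the pool.

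Most members, 209 in WT (85.0%) and 4081 in the pool (87.1%), overlapped an annotated ncRNA gene on their own strand. Within 50 nt of the 3′ end of such a gene ended 51 in WT (20.7%) and 715 in the pool (15.3%). The annotation lists 7171 lncRNA and ncRNA genes beside 5113 protein-coding ones. Neither share was computed for other antisense models, so neither can be called particular to the members. Among the members outside annotated ncRNA genes, the share in or beyond the upstream gene was 4.96% of 605 in the pool, against 10.8% of all, and 1 of 37 in WT. Single-exon antisense models that began in the 3′ UTR of the host, which are no members, ended past the first codon in 61.5% of 161 in WT and 52.3% of 1665 in the pool, and past the sense start in 42.2% and 33.9%.

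Models with like starts and ends had been joined before deposit, and a model shorter only at its 5′ end was absorbed by the longer one. Single-exon models of 1 host and library therefore mostly have to differ in their ends. That most end positions have 1 member is thus largely set by construction. The counts of end positions also depend on the tolerance used at 3′ ends, which is not given in the sources used here. Among 1013 hosts with at least 2 members, the ends spanned a median of 470 nt, with quartiles of 156 and 1102 nt, and in 97 of them (9.58%) they lay within 50 nt. Members fell on both sides of the first codon in 392 hosts and on both sides of the sense start in 353. All ended in the coding span in 196 hosts and all past the sense start in 271. With ends within 10 nt joined, there were 4792 end positions, of which 4653 had 1 member, and 135 were held by both libraries. Of the 246 WT members, 189 (76.8%) ended within 50 nt of a pool member of the same host, and the labels list untreated WT cells as part of the pool.

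The host with the most members was *cao2*, a copper amine oxidase-like gene with a 5′ UTR span of 119 nt, which had 8 members in WT and 17 in the pool. In WT they ended 996, 378, 354, 249 and 147 nt inside the coding span and 48, 120 and 386 nt past the first codon. In the pool they reached from 1428 nt inside to 408 nt past it. In either library 2 of the *cao2* members ended past the sense start, and an end 120 nt past the first codon and ends 147, 249 and 354 nt inside were found in both libraries.

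At *pma2*, which codes for a plasma membrane proton ATPase and has no annotated 5′ UTR, all 8 WT and 14 pool members ended between the first codon and the divergent neighbour *spc7*. In WT they ended 513, 528, 549, 817, 1215, 1420, 1441 and 1561 nt past the first codon of *pma2*. The 14 ends of the pool reached from 355 to 1564 nt past it, with a median over both libraries of 841.5 nt. Of the 22 members, 10 ended more than 1000 nt past the first codon of *pma2* and 12 did not, and the gap to *spc7* is 2518 nt. The longest of them measured 4544 nt and began 2979 nt inside the coding span of 3033 nt.

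At *pdc202*, a pyruvate decarboxylase gene that also has no annotated 5′ UTR, the 9 members ended past the annotated gene. The 5 of WT ended 544, 557, 580, 623 and 640 nt past its first codon, and the 4 of the pool 585, 641, 712 and 1146 nt past it. The groups overlapped, and none of them crossed the gap of 1194 nt to the tandem neighbour *ysp2*.

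At *meu1*, a gene named for its expression in meiosis, ends lay on either side of the first codon. In WT 6 of 9 members ended past it, at 38, 143, 170, 361, 395 and 452 nt, and the other 3 ended 4, 465 and 735 nt inside. In the pool 11 of 15 *meu1* members ended past it, between 14 and 532 nt, and the other 4 ended 17, 464, 716 and 926 nt inside. The *eta2* gene, a Myb family factor of RNA polymerase I termination, had 2 of 3 members past the first codon in WT, at 133 and 310 nt, and 11 of 16 in the pool. At *num1*, whose protein anchors dynein, the 7 members of WT all ended in the coding span, 18 to 630 nt inside. In the pool 10 of 11 *num1* members did so, and 1 ended 132 nt past the sense start.

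**Figure D5:**
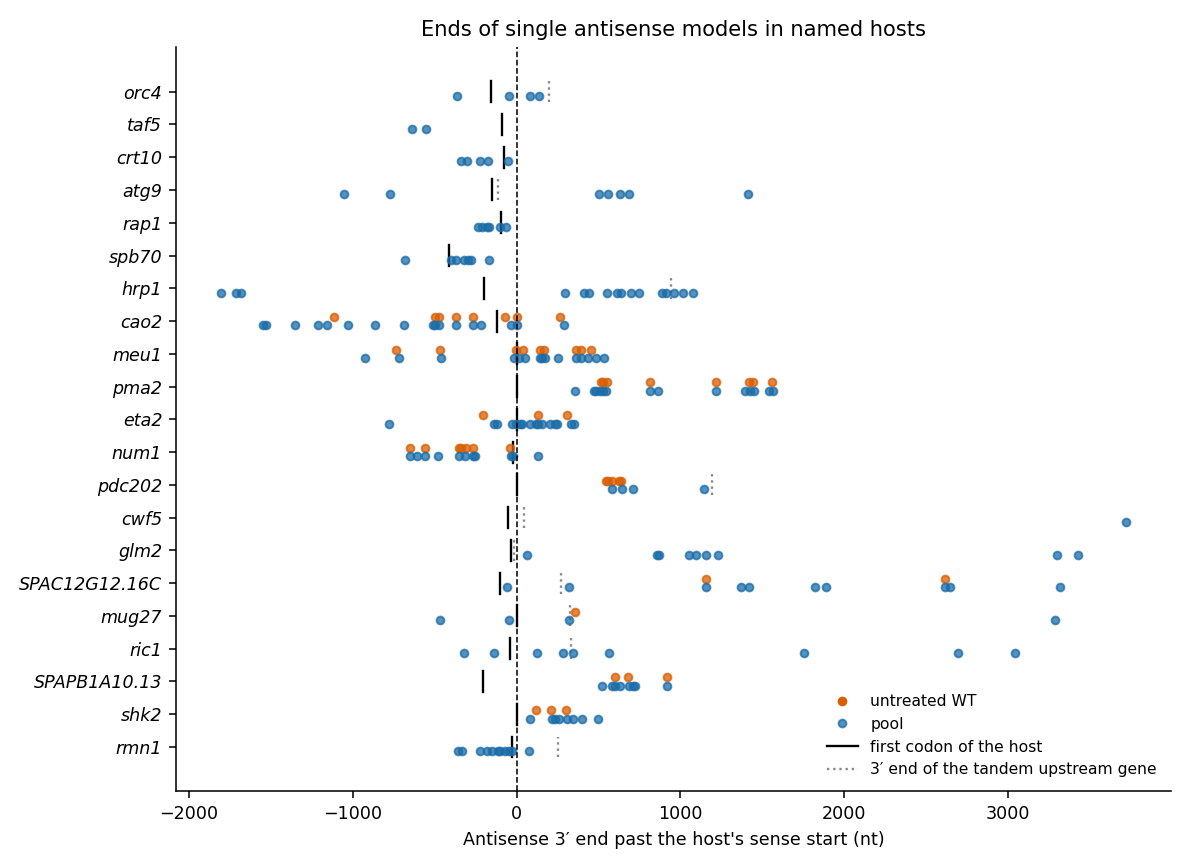
Position of the 3′ end of each member (x axis, nt past the host's sense start, negative inside the gene) in the named host genes (y axis), in untreated WT (orange) and the pool (blue). Black ticks mark the host's first codon and dotted grey ticks the 3′ end of a tandem upstream gene. All members of *pma2*, *pdc202*, *shk2* and *SPAPB1A10.13* lie right of the dashed line at the sense start, and members of *cao2* lie on both sides of it. For *pma2*, *pdc202*, *shk2*, *meu1*, *eta2* and *mug27* no 5′ UTR is annotated, so there the line is the first codon.

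Long hosts held the widest ranges. At *mdn1*, the midasin gene with a coding span of 14154 nt, 10 pool members ended between 1016 and 11607 nt inside. At *dhc1* all 17 members ended between 460 and 9910 nt inside its coding span of 12591 nt. At *vps1301*, a lipid transfer protein gene, 22 of 24 members ended in the coding span, 1 in the gap and 1 in *dep1*. Among hosts with at least 10 members, the narrowest ranges were found at *SPAPB1A10.13* with 397 nt, *shk2*, a PAK-like kinase gene, with 411 nt and *rmn1*, an RNA-binding subunit of the MTREC complex, with 437 nt. All 11 members of *SPAPB1A10.13* ended 521 to 918 nt past its sense start. All 11 of *shk2*, which has no annotated 5′ UTR, ended 84 to 495 nt past its first codon. At *rmn1* 10 of 11 ended 2 to 332 nt inside the coding span.

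The longest runs past a sense start came from the pool. A model from *cwf5*, a splicing factor gene, began 6 nt inside the coding span and ended 3718 nt past the sense start, after 3672 of the 3734 nt of *ski2*, the RNA helicase of the Ski complex. At *glm2*, which overlaps its tandem neighbour *ste6*, all 9 members ended past the sense start, from 63 to 3423 nt, and the longest spanned the 2886 nt of *ste6*, a guanine nucleotide exchange factor for Ras. At *mug27*, a protein kinase gene, 1 pool member ended 3283 nt past the sense start in *mto1*, a linker of the gamma tubulin complex, of which it covered 2959 of 3511 nt. The other 4 *mug27* members ended 468 and 47 nt inside and 317 and 356 nt past the sense start. The last was from WT and also ended in *mto1*, across the gap of 324 nt. No 5′ UTR is annotated for *mug27*, so its sense start is its first codon. At *ric1*, a subunit of a Rab exchange factor, 5 of 9 members ended in *grp1*, 344 to 3044 nt past the sense start. At *SPAC12G12.16C* 11 of 12 members entered or passed *pus9*, and 2 of these 11 were from WT, ending 1159 and 2614 nt past the sense start. In *vps15*, a protein kinase gene, 2648 nt were covered by a pool model from the MAP kinase gene *pmk1*.

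Among the genes taken from the study's text, *orc4*, *taf5*, *crt10*, *atg9*, *rap1*, *spb70* and *hrp1* had members in the pool alone, and *hrp3* had none in either library. At *orc4*, a subunit of the origin recognition complex, 4 members ended 210 nt inside the coding span and 109, 239 and 293 nt past the first codon, and the last pair lay past the sense start and short of *frg1*. At *atg9*, an autophagy membrane protein, 2 ended 624 and 904 nt inside the coding span and 5 ended 503 to 1410 nt past the sense start, beyond the small overlapping gene *SPBC15D4.08C*. At *spb70*, the B-subunit of DNA polymerase alpha, 6 of 7 members ended in its 5′ UTR span of 411 nt, 14 to 244 nt past the first codon. At *rap1*, a telomere-binding protein, 5 of 6 ended 9 to 140 nt inside the coding span and 1 ended 30 nt past the first codon. At *crt10* 4 of 5 ended 95 to 259 nt inside and 1 ended 25 nt past the first codon. At *taf5*, a subunit of TFIID, both ended in the coding span, 463 and 544 nt inside.

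At *hrp1* the pool had 16 members and WT had none. Of these, 13 began within 100 nt of the first codon, at 36 to 74 nt, and ended 293 to 1077 nt past the sense start, 3 of them in *fta2*. The other 3 began 2916 to 3176 nt inside the coding span and ended 1483 to 1607 nt inside. The mutant cells of the pool carry kanMX at *hrp1*, with the extent of the deletion not given in the sources used here. The latter 3 lie wholly inside the coding sequence, and for the 13 that run out of it the deleted and the intact allele cannot be told apart.

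Over the genome, 1331 of 5113 protein-coding genes (26.0%) had a member past the first codon in either library, 1005 (19.7%) one past the sense start and 282 (5.52%) one in or beyond the upstream gene. In the pool these genes were 1322 (25.9%), 998 (19.5%) and 280 (5.48%), and in WT 109 (2.13%), 75 (1.47%) and 20 (0.391%). Of 144 meiotic genes chosen by symbol, 45 (31.2%, 23.8 to 39.5) had a member and 27 (18.8%, 12.7 to 26.1) had one past the sense start, shares near those of all genes. Of 131 cytoplasmic ribosomal protein genes, 3 (2.29%, 0.475 to 6.55) had a member and the same number had one past the sense start. Coding spans moved with the second list, with a median of 531 nt against 1221 nt for all genes and 1024.5 nt for the meiotic genes, and the part of length was not tested.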

How the data were processed

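The 2 Iso-Seq libraries, 1 per group, were used, and models off chromosomes I, II and III, 63 in WT and 173 in the pool, were left out. The authors used Iso-Seq4 for clustering, minimap2 for mapping and TAMA Collapse for joining redundant isoforms, with 100 nt tolerances at starts and junctions. A model that is shorter only at its 5′ end was absorbed by the longer one, so that a start in coding sequence is listed only where no longer model shares its structure. The tolerance at 3′ ends is not given in the sources used here. The deposited columns are block positions, strand and a score, which is 40 throughout and was left unused. Read depth is unknown. The processing notes name ASM294v2; positions were used with ASM294v3 because no model passed a chromosome end and 97.2% (WT) and 89.7% (pool) of introns were GT-AG, against 0.145% and 0.187% after a shift of 10 nt.

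Touching blocks were joined. Hosts, first codons and sense starts came from the RefSeq annotation, with 5113 protein-coding and 322 other genes kept and 7171 lncRNA and ncRNA genes left out. The work was done in Python 3.11.15, with SciPy 1.17.1 for intervals, NumPy 2.4.6, and Matplotlib 3.10.9 for figures. No p-values were computed. The assignment of end classes was tested on simulated models in tandem hosts with 1 coding exon and an annotated 5′ UTR. All 800 planted members got the class planted, and of 200 planted sense models 0 were kept. The code for ending rates was not tested in this way, nor were divergent or overlapping hosts. Alternatives changed the sense start, the hosts, the unit counted and the models kept. Named genes were *orc4*, *taf5*, *crt10*, *atg9*, *rap1*, *spb70*, *hrp1* and *hrp3*, which are some of those in the study's text, the 5 hosts with the most members in both libraries or in WT, the 5 with the farthest end, the hosts with the 3 narrowest and 3 widest ranges among those with at least 10 members, and the 5 upstream genes covered farthest. *exg2*, *sgt1*, *sea3* and *SPAC1399.01C* were named for their sequences, and the barred pairs were chosen after their values were seen. The members and lists were chosen with earlier results of these data known.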

Additional observations from a re-analysis of the deposited data

How the results depend on the processing

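Each of the 3 shares (ends past the first codon, past the sense start, in or beyond the upstream gene) was recomputed under 9 alternatives in each library, and 28 of the 54 values stayed within the interval of the main value. In WT 19 of 27 did so, and in the pool 9 of 27. The WT intervals are wider, on 246 members against 4686, so these counts depend on the width of the intervals. With own-strand exons allowed the WT shares were 75.1%, 61.0% and 32.0%, and without models that overlap an annotated ncRNA gene, which leaves 37, they were 81.1%, 62.2% and 2.70%. Past the sense start the WT share was 34.2% with the commonest start of WT sense models as the sense start and 33.7% in hosts with an annotated 5′ UTR. In the pool these settings gave 38.6% and 39.2%, and the former gave 9.48% in the upstream gene. With own-strand exons the pool shares were 61.7%, 47.2% and 19.3%. Outside annotated ncRNA genes they were 56.2%, 40% and 4.96%. Counting each host once by its farthest end gave 75.2%, 56.8% and 15.9%, and by its least far end 53.3%, 36.9% and 9.50%. Without ends before an A-rich stretch the shares past the first codon and in the upstream gene were 54.1% and 9.56%, and with ends within 50 nt counted once the former was 56.6%. Apart from the alternatives' own construction, the cause was not tested. Keeping spliced models moved none of the shares beyond the interval.

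Every value describes these libraries, since each group has 1 library and neither read numbers nor replicates are given. No paired analysis was possible because each group has 1 library. The number of models, 246 in WT, limits the precision there. An end is the last base of a collapsed model, and its tolerance is not known here. Members are not independent, since many begin at the same start. The sense start is an annotated position, and where the 5′ UTR is not annotated the classes past the first codon and past the sense start coincide.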
